A study of Homo sapiens with 6 samples.

Results

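The E2F and DP transcription factors are the 10 genes E2F1 to E2F8, TFDP1 and TFDP2, taken by symbol from the 25827 features of a table of nascent transcription, and all 10 passed the filter on low values. PRO-seq, which sequences the RNA held by engaged RNA polymerases in permeabilized cells, was run on the line SBC-3, which derives from a human small cell lung carcinoma. Cells had been transfected with siSFPQ-2 or siSFPQ-3, each an siRNA against the RNA- and DNA-binding protein SFPQ, or with the control siRNA siCtrl, all at 10 nM, and were harvested after 72 h. Each group held 2 libraries. The reads counted in the features of the table, recovered from the normalized values, came to 12072813 to 18475158 per library, which is not the sequencing depth. Where "siSFPQ" is written without a number it means the 4 libraries of both siRNAs. Whether the 2 libraries of a group are separate cultures is not stated in the labels, and p-values cover only the spread among these 6 libraries, which may be technical. All libraries are of 1 line given siRNA, and all are read at 1 time.

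E2F proteins bind DNA and drive or hold back the genes needed for DNA replication and the cell cycle. E2F1, E2F2 and E2F3 are the activators, and the retinoblastoma protein RB1 keeps them in check until G1 cyclin-dependent kinases phosphorylate it. E2F4 and E2F5 act mostly as repressors together with the pocket proteins RBL1 and RBL2, E2F6 represses within a Polycomb complex without pocket proteins, and E2F7 and E2F8 repress without a DP partner. The other E2Fs bind DNA as pairs with a DP protein, encoded by TFDP1 or TFDP2. Loss of RB1 is a hallmark of small cell lung cancer, and the E2F genes themselves, E2F1 above all, are known E2F targets.

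Because E2F genes can regulate each other, the bases before their starts are shown for members whose transcription fell (E2F1, E2F2, TFDP1 and E2F7), for an activator that passed no test (E2F3) and for the member that rose (TFDP2). A RefSeq promoter table of build GRCh38.p14 held 11 starts of 8 members. Capitals mark words of the E2F consensus on either strand, namely the 8-letter words TTTCCCGC, TTTCGCGC, TTTGCCGC and TTTGGCGC and the 7-letter words TTTCGCG and TTTGGCG. The short words lie inside 2 of the long ones, so both kinds can mark the same bases. The short words were added after the sequences had been seen. The lines give the 100 bases just before the first start listed, and for TFDP1 the 30 bases that hold its match.
E2F1 (chr20:33686386-33686485, minus strand): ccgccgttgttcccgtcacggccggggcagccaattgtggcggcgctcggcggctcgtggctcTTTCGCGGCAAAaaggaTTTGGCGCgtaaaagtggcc
E2F2 (chr1:23531234-23531333, minus strand): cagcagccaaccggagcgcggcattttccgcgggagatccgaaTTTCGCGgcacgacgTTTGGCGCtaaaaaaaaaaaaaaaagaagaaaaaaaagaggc
E2F3 (chr6:20401779-20401878, plus strand): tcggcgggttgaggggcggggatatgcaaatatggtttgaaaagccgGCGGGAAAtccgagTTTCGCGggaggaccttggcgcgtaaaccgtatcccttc
E2F7 (chr12:77065570-77065669, minus strand): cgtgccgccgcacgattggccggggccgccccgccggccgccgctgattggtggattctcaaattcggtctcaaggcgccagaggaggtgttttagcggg
TFDP1 (chr13:113584623-113584652, plus strand): ggcgccgaagGCGCGAAAaggcgcgcaggc
TFDP2 (chr3:142149545-142149644, minus strand): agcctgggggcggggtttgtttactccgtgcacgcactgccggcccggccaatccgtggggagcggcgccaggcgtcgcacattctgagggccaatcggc

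The 3 activators each held both kinds of word in the 100 bases before their first start. In E2F1 a long word lay from -33 to -26 and another from -20 to -13, in E2F2 the long word lay from -42 to -35, and in E2F3 it lay from -53 to -46, counting back from the start. TFDP1 held a long word from -120 to -113. TFDP2 held only a short word, from 20 to 26 after its first start, and none at its other 2 starts. No such word was found in the 300-base entries of E2F4, E2F6 and E2F7, nor at the second start of E2F3. Among 35116 promoter entries, 3.31% held a long word, 3.19% a short word and 1.27% both. Since the short words were added with these members' sequences in view, the last 2 shares are no test of the members. A match describes the letters in this window and does not show binding.

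Transcription of E2F1 and E2F2 was lower with either siRNA against SFPQ than in siCtrl libraries, while that of E2F3 did not pass the test. E2F1 (chromosome 20, 33675477 to 33686385) had 262 and 152 normalized reads with siSFPQ-2, 313 and 315 with siSFPQ-3, and 583 and 574 with siCtrl. All 4 siSFPQ libraries lay below both siCtrl libraries, and the second siSFPQ-2 library was the lowest. The log2 fold change of siSFPQ over siCtrl was -1.21 (SE 0.18, limma with Benjamini-Hochberg adjustment over 21773 features, adjusted p = 3.77e-04), a mean of 45.0% of siCtrl. Fold changes are on the log2(normalized reads + 1) scale, which understates changes of low genes, and a feature is called when its adjusted p is under 0.05.

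E2F2 (chromosome 1, 23505212 to 23531233) had 68.6 and 29.9 normalized reads with siSFPQ-2, 113 and 83.0 with siSFPQ-3, and 229 and 213 with siCtrl. It was the member with the lowest reads and the largest fold change, -1.72 (SE 0.28, limma adjusted p = 6.88e-04). The second siSFPQ-2 library, again the lowest, held 27 reads of the gene before scaling. E2F3 (chromosome 6, 20401879 to 20493714) had 4138 and 4391 with siSFPQ-2, 4606 and 4566 with siSFPQ-3, and 4822 and 4623 with siCtrl. Its siSFPQ values all lay below its siCtrl values, but its log2 fold change of -0.09 (95% interval -0.31 to 0.12, limma adjusted p = 0.455) was not called. Within the same libraries, E2F1 and E2F2 averaged 45.0% and 33.4% of their siCtrl reads, and E2F3 93.7%.

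**Figure D1:**
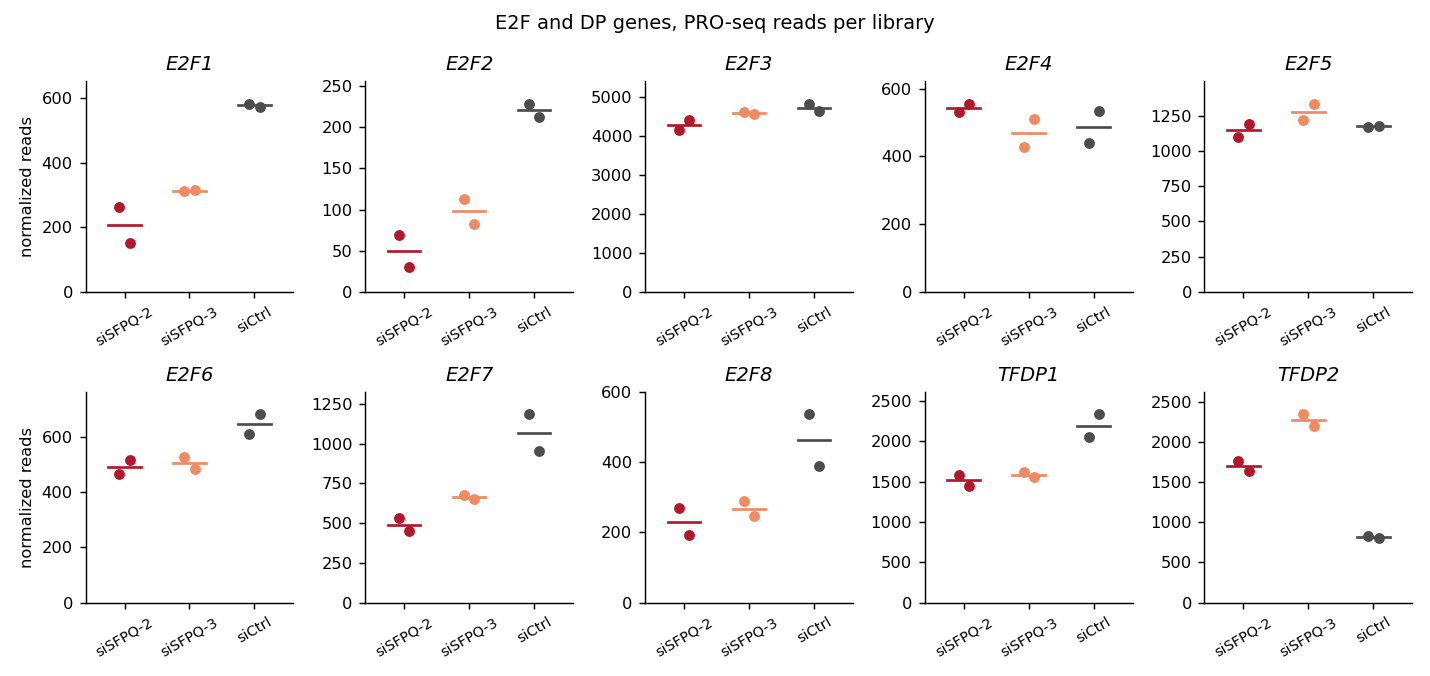
Normalized reads of the 10 genes (vertical axes, each from 0) in each library of siSFPQ-2, siSFPQ-3 and siCtrl (horizontal axes); points are libraries and bars are means of 2. E2F1, E2F2, E2F3, E2F6, E2F7, E2F8 and TFDP1 were lower in every siSFPQ library than in either siCtrl library, and TFDP2 was higher. E2F3 was nevertheless not called. The share of all features without such overlap was not taken.

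Of the repressors, E2F6, E2F7 and E2F8 fell, and E2F4 and E2F5 did not pass the test. E2F7 (chromosome 12, 77021251 to 77065569) had 529 and 452 normalized reads with siSFPQ-2, 675 and 651 with siSFPQ-3, and 1184 and 952 with siCtrl, a log2 fold change of -0.90 (SE 0.12, limma adjusted p = 1.45e-04). E2F8 (chromosome 11, 19224063 to 19241655) had 269 and 193 with siSFPQ-2, 288 and 246 with siSFPQ-3, and 536 and 390 with siCtrl. Its log2 fold change was -0.89 (SE 0.17, limma adjusted p = 1.67e-03), close to that of E2F7. In both genes every siSFPQ library lay below both siCtrl libraries, which themselves lay far apart. E2F7 and E2F8 are known to act in feedback on the activators, and with E2F1 they are E2F targets themselves.

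E2F6 (chromosome 2, 11444375 to 11466161) had 463 and 516 normalized reads with siSFPQ-2, 525 and 484 with siSFPQ-3, and 607 and 680 with siCtrl. The 4 siSFPQ libraries lay below both siCtrl libraries, with the smallest change of the members called, -0.37 (SE 0.11, limma adjusted p = 0.0138). Without the second siCtrl library it was -0.29 (adjusted p = 0.167) and no longer called. E2F4 (chromosome 16, 67192155 to 67198918) had 532 and 556 with siSFPQ-2, 427 and 509 with siSFPQ-3, and 439 and 534 with siCtrl. These groups overlapped, and the log2 fold change was 0.06 (95% interval -0.21 to 0.32, limma adjusted p = 0.719). E2F5 (chromosome 8, 85177154 to 85214518) had 1100 and 1190 with siSFPQ-2, 1220 and 1335 with siSFPQ-3, and 1168 and 1178 with siCtrl, and its log2 fold change of 0.04 (95% interval -0.16 to 0.25, limma adjusted p = 0.723) was not called either. For both genes the interval excludes a change as large as that of E2F7 or E2F8.

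The DP partner genes moved in opposite directions. TFDP2 (chromosome 3, 141944428 to 142149544) had 1765 and 1641 normalized reads with siSFPQ-2, 2350 and 2200 with siSFPQ-3, and 828 and 803 with siCtrl. The groups were well apart, and the log2 fold change of 1.27 (SE 0.09, limma adjusted p = 2.35e-06) was the only rise in the family. TFDP1 (chromosome 13, 113584688 to 113641473), which encodes the more common DP partner, had 1586 and 1445 with siSFPQ-2, 1615 and 1557 with siSFPQ-3, and 2052 and 2336 with siCtrl. Its log2 fold change was -0.50 (SE 0.10, limma adjusted p = 1.82e-03), again with no overlap. The ratio of TFDP2 to TFDP1 normalized reads was therefore 1.11 and 1.14 with siSFPQ-2, 1.45 and 1.41 with siSFPQ-3, and 0.403 and 0.344 with siCtrl. The ratio compares libraries and not the levels of the genes, since TFDP2 spans 205 kb and TFDP1 56.8 kb.

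Over the 10 members, 6 were called lower and 1 higher, where 23.2% of all 21773 tested features were called lower and 24.8% higher (48% in all). The members' median log2 fold change was -0.44, against -0.02 over all features. The activators had a median of -1.21, which is the value of E2F1, and the repressors of -0.37, which is that of E2F6. edgeR and DESeq2 on recovered whole reads also called 6 members lower and 1 higher. In the authors' deposited table the log2 fold change was -1.15 for E2F1, -1.58 for E2F2 and 1.29 for TFDP2. In bulk nascent RNA, fewer cells in a given phase of the cell cycle and less transcription per cell cannot be told apart.

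With each siRNA alone, the same 6 members were lower and TFDP2 higher, although the siRNAs share the siCtrl libraries. With siSFPQ-2, where 17.9% of features were called lower and 21.2% higher (39.2% in all), the log2 fold changes of E2F1, E2F2, E2F7 and TFDP2 were -1.53, -2.26, -1.12 and 1.06. With siSFPQ-3, where 20.4% were called lower and 23% higher (43.4% in all), they were -0.88, -1.18, -0.68 and 1.48. The E2F genes named here thus had point estimates nearer 0 with siSFPQ-3, and TFDP2 the reverse. With siSFPQ-3, only E2F7 and TFDP1 of the 6 were still called lower without the first siCtrl library, and only E2F7 and E2F8 without the second. E2F2 and E2F6 also lost that call without the second siSFPQ-3 library. With DESeq2, E2F6 was not called with siSFPQ-2 (adjusted p = 0.0526) or siSFPQ-3 (adjusted p = 0.0868). E2F6 lost its call with siSFPQ-2 without either siCtrl library or the first siSFPQ-2 library, and TFDP1 without the second siCtrl library.

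The siRNAs were also compared with each other. For siSFPQ-3 over siSFPQ-2, 0 of 10 members were called by limma, edgeR or DESeq2, where limma called 0.0781% of features higher and 0.023% lower (0.101% in all). The share of all features with an unadjusted limma p under 0.05 was not taken, so the shares above do not serve for that threshold. Of the members, 4 had an unadjusted limma p under 0.05. These were E2F1 (log2 difference 0.65, 95% interval 0.19 to 1.11), E2F2 (1.08, interval 0.35 to 1.80), E2F7 (0.44, interval 0.14 to 0.74) and TFDP2 (0.42, interval 0.19 to 0.65), all higher with siSFPQ-3. The size of the E2F1 and E2F2 differences rested on the siSFPQ-2 libraries. Without the first of them the differences were 1.04 for E2F1 (limma adjusted p = 0.0135) and 1.66 for E2F2 (adjusted p = 0.0148), both called, and without the second 0.26 (adjusted p = 0.672) and 0.49 (adjusted p = 0.626). Each of these fits leaves 1 siSFPQ-2 library, which is assumed to vary like the other groups. For the other 6 members the interval of the difference held 0, the widest being that of E2F8, from -0.21 to 0.66. Of the 45 G1/S genes described further on, 0 were called by limma or edgeR in this comparison. DESeq2 called 8 of them higher, and 31 were higher at an unadjusted p under 0.05 in limma. The shares of all features that go with the counts of 8 and 31 were not taken.

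**Figure D2:**
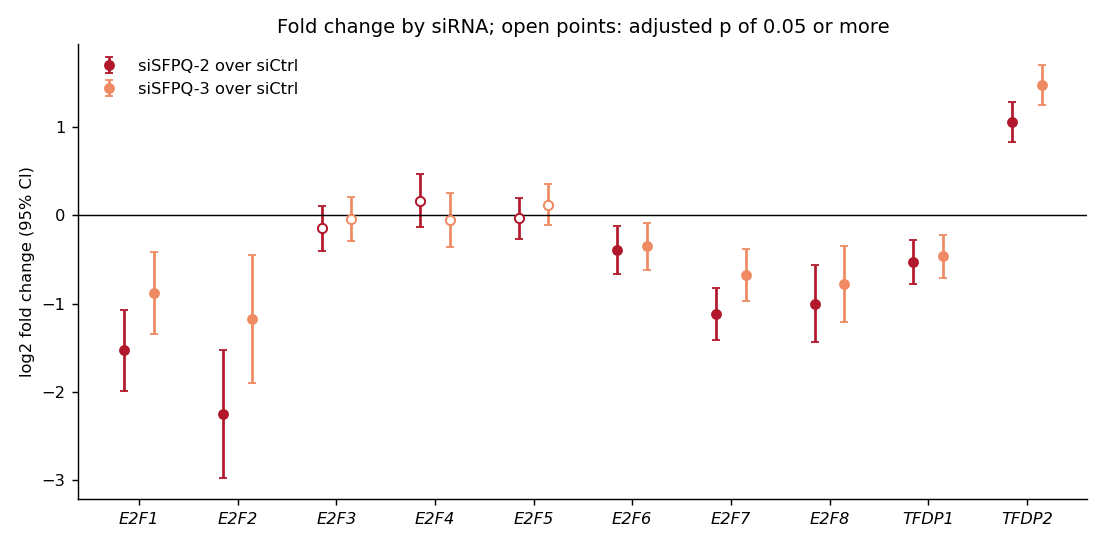
Log2 fold change with its 95% interval (vertical axis) of each gene (horizontal axis) for siSFPQ-2 over siCtrl and siSFPQ-3 over siCtrl; filled points have an adjusted p under 0.05. E2F3, E2F4 and E2F5 lie near 0 with both siRNAs, and TFDP2 alone lies above 0 among filled points.

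Activators were set against repressors as the mean log2 value of E2F1 to E2F3 minus that of E2F4 to E2F8 in each library. This balance averaged -0.34 ± 0.36 in siSFPQ libraries and 0.26 ± 4.14e-04 in siCtrl libraries (SD, n = 4 and n = 2), a difference of -0.59. The 4 siSFPQ libraries lay below both siCtrl libraries, at -0.30 and -0.85 in siSFPQ-2 libraries and -0.02 and -0.17 in siSFPQ-3 libraries. In siCtrl libraries the balance against E2F4 to E2F6 alone was 0.35 and 0.13, further apart than the full balance. The small siCtrl SD of the full balance thus did not hold for this part of it. Against E2F4 to E2F6 alone the difference between siSFPQ and siCtrl was -0.92. Against E2F7 and E2F8 alone it was -0.11, with 0.17 ± 0.20 in siSFPQ libraries and 0.28 ± 0.23 in siCtrl libraries, which overlapped. The mean of the activators was thus lower relative to E2F4 to E2F6 in every siSFPQ library. Relative to E2F7 and E2F8 the difference was smaller than the spread of the libraries. The mean counts the 3 activators alike, and E2F3 was itself not called (log2 fold change -0.09), so the lower mean reflects mainly E2F1 and E2F2. These scores describe the members and were given no test.

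**Figure D3:**
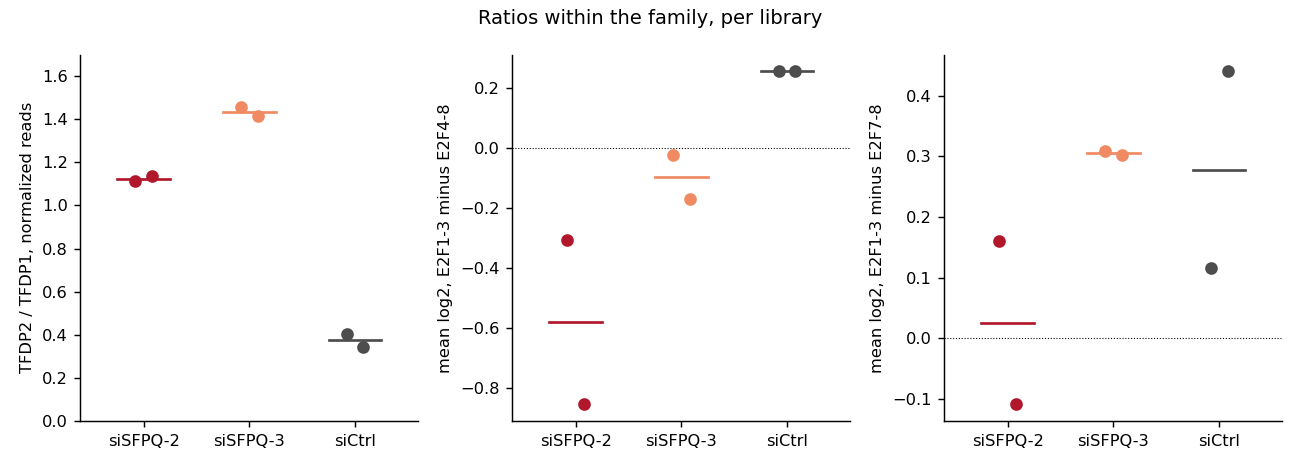
The ratio of TFDP2 to TFDP1 normalized reads (left, from 0), and the mean log2 value of E2F1 to E2F3 minus that of E2F4 to E2F8 (middle) or minus that of E2F7 and E2F8 (right), in each library of siSFPQ-2, siSFPQ-3 and siCtrl; bars are means of 2. The first 2 panels show siSFPQ apart from siCtrl, and the last shows overlap.

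Per kb of RefSeq span, the levels of the members spread widely. E2F4 was highest in both groups, at 74.8 ± 8.28 normalized reads per kb with siSFPQ and 71.9 ± 9.91 with siCtrl (SD, n = 4 and n = 2). In siSFPQ libraries E2F3, E2F5, TFDP1, E2F1, E2F6, E2F8, E2F7, TFDP2 and E2F2 followed in that order, down to 2.83 ± 1.33 per kb for E2F2. In siCtrl libraries the order was E2F1, E2F3, TFDP1, E2F5, E2F6, E2F8, E2F7, E2F2 and TFDP2, down to 3.98 ± 0.09 for TFDP2. E2F1 thus had rank 5 in siSFPQ libraries, at 23.9 ± 7.01 per kb, and rank 2 in siCtrl libraries, at 53.0 ± 0.62. Neighbours whose library ranges overlapped were TFDP1 and E2F1, E2F1 and E2F6, E2F8 and E2F7, and E2F7 and TFDP2 in siSFPQ libraries, and E2F6 and E2F8, and E2F8 and E2F7, in siCtrl libraries. The sources used here do not give which part of each gene was counted, and the span is an approximate length.

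Signal along each gene came from deposited profiles of 500 bins, taken as 100 bins upstream, 300 along the gene and 100 downstream. PRO-seq signal peaks where polymerase pauses near the start and is lower along the body, so a lower 5′ share means less signal near the start relative to the body. The share was taken as the log2 ratio of the first 10% to the remaining 90% of the gene, with a pseudocount of 1.81. It was called lower for 4 members, E2F2, E2F3, E2F4 and TFDP2, and higher for none, where 8.66% of 20286 genes were called lower and 1.95% higher. Leaving out any 1 library other than the second siSFPQ-3 library left 0 members called, and without that one 2 were. A pseudocount 5 times smaller also left 0. The median difference over all genes was -0.18.

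TFDP2 had 5′ shares of 0.62 and 0.63 with siSFPQ-2, 0.26 and 0.47 with siSFPQ-3, and 1.34 and 1.06 with siCtrl, a difference of -0.71 (SE 0.16, limma adjusted p = 0.0461). Its first 10% held a mean signal of 115 ± 10.7 with siSFPQ and 55.1 ± 0.15 with siCtrl (SD, n = 4 and n = 2), a ratio of 2.10. Its body held 82.3 ± 14.9 with siSFPQ and 23.1 ± 3.41 with siCtrl, a ratio of 3.57. The ratio was thus larger along the gene than at its 5′ end. Further windows were added after the profiles had been seen and were given no test. Taken from the same profiles, they are no independent evidence. The 20 bins around the first gene bin held 360 ± 74.3 with siSFPQ and 256 ± 31.6 with siCtrl (ratio 1.41, with overlapping ranges). The first 90 upstream bins held 96.6 ± 8.10 with siSFPQ and 29.5 ± 11.3 with siCtrl (ratio 3.28). RefSeq lists 3 starts of TFDP2 and the coordinates of the profiled transcript are not given, so these upstream bins may lie within the gene.

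E2F3 and E2F4, whose total reads passed no test, also had lower 5′ shares. E2F4 had 2.39 and 2.52 with siSFPQ-2, 2.30 and 2.75 with siSFPQ-3, and 3.53 and 3.11 with siCtrl, a difference of -0.83 (SE 0.19, limma adjusted p = 0.0451). E2F3 had 1.44 and 1.41 with siSFPQ-2, 1.26 and 1.42 with siSFPQ-3, and 1.86 and 2.18 with siCtrl, a difference of -0.63 (SE 0.14, limma adjusted p = 0.0456). In both genes the ratio of siSFPQ to siCtrl signal was below 1 in the first 10% (0.761 for E2F4 and 0.735 for E2F3) and above 1 in the body (1.32 and 1.17). E2F2 had a difference of -0.94 (SE 0.14, limma adjusted p = 0.0218), on body signal of only 1.24 ± 0.57 with siSFPQ and 2.82 ± 0.02 with siCtrl. That signal is near the pseudocount.

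The other members called lower had less signal both at the start and along the body with siSFPQ than with siCtrl. E2F7 held 0.470 of its siCtrl signal in the first 10% and 0.612 in the body, E2F8 0.480 and 0.627, and E2F1 0.492 and 0.425. TFDP1 held 0.671 and 0.674, and E2F6 0.738 and 0.821. The 5′ share differed by -0.41 in E2F7 (limma adjusted p = 0.0927), -0.44 in E2F8 (0.154) and -0.17 in E2F6 (0.466). In E2F1 it differed by -0.01 (95% interval -0.29 to 0.27) and in TFDP1 by -0.03 (interval -0.52 to 0.46). None of these differences was called. The share of signal downstream of the gene relative to its body was called for 0 members, where 0.133% of genes were called higher and 0.212% lower. At an unadjusted limma p under 0.05 there was 1 member, E2F1, and the share of all genes at that threshold was not taken. E2F1 had more signal downstream, 15.7 ± 6.34 with siSFPQ and 43.3 ± 3.41 with siCtrl, than in its body, 4.52 ± 1.44 and 10.6 ± 0.07, and the gene NECAB3 lies 128 bases away.

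**Figure D4:**
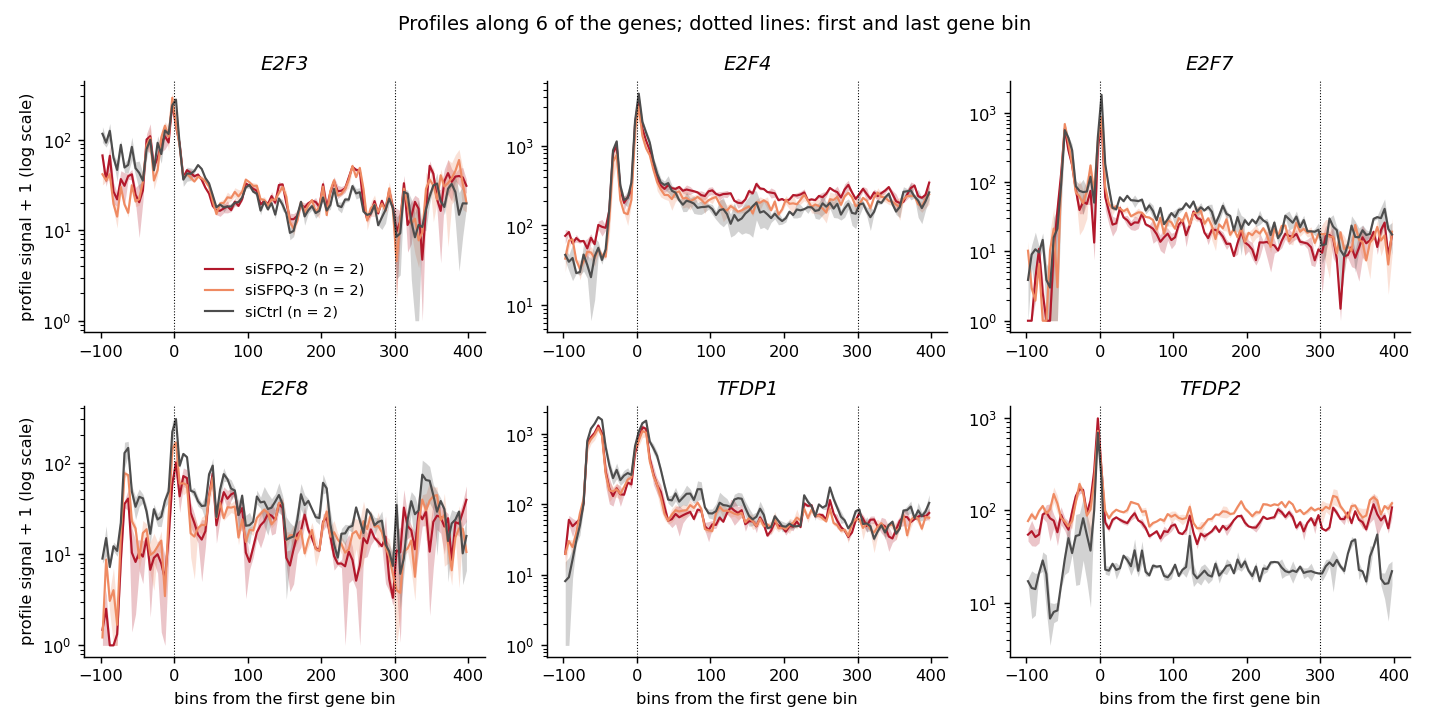
Profile signal plus 1 on a log scale (vertical axes) by bin from the first gene bin (horizontal axes) for 6 genes; lines are means of 2 libraries of siSFPQ-2, siSFPQ-3 and siCtrl, and bands their range. For TFDP2 the mean signal with both siRNAs lies above that of siCtrl along the gene and in most bins upstream, with overlapping ranges around the start, while E2F7 and E2F8 have lower mean signal than siCtrl at the start and along the body.

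Of 15 annotated features that overlap a member or lie within 5 kb of one, 4 were tested. NECAB3, beside E2F1, fell with a log2 fold change of -0.59 (SE 0.09, limma adjusted p = 4.46e-04). ELMO3, 212 bases from E2F4, had -0.41 (SE 0.15, limma adjusted p = 0.0485), and was not called when the first siCtrl library was left out (adjusted p = 0.347), without the second (0.0758), with either siSFPQ-2 library or the first siSFPQ-3 library left out, and with DESeq2 (0.112). E2F3-IT1, which overlaps E2F3, had 0.29 (limma adjusted p = 0.260), and RBIS, which overlaps E2F5, had 0.25 (limma adjusted p = 0.199). Whether counting used the strand is not given here, so reads of overlapping genes cannot be told apart.

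Upstream of the E2Fs, the pocket protein and G1 kinase genes were mixed, with 5 of 18 tested genes higher and 8 lower (median -0.26), against 24.8% and 23.2% of all features. RBL1, the pocket protein gene that is itself an E2F target, fell to 555 ± 139 normalized reads with siSFPQ, against 1012 ± 90.3 with siCtrl (SD, n = 4 and n = 2), a log2 fold change of -0.90. RB1 had 1374 ± 92.3 with siSFPQ and 1112 ± 183 with siCtrl (0.31, limma adjusted p = 0.0367), and RBL2 618 ± 17.3 with siSFPQ and 504 ± 48.3 with siCtrl (0.30, adjusted p = 0.0326). These 2 calls were lost with DESeq2 (adjusted p = 0.0532 and 0.0798) and without the second siCtrl library (0.429 and 0.299), among other settings. CDK6, a G1 kinase that phosphorylates RB1, rose by 1.80 and CDK2 by 0.59. The cyclin D1 gene CCND1 fell by 1.18, and the cyclin E genes CCNE1 by 1.11 and CCNE2 by 1.24.

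Downstream, 38 of 45 known E2F target and G1/S genes were called lower and 0 higher, against 23.2% and 24.8% of all features. Their median was -0.80 on the log2 scale, against -0.02 over all features. By edgeR 38 fell and by DESeq2 37, with 0 higher by either tool or at an unadjusted p under 0.05. The list shares RBL1, CCNE1, CCNE2 and CDC25A with the one above and MYBL2 with the next. GINS4, a subunit of the replicative helicase, fell to 298 ± 106 with siSFPQ, against 1294 ± 34.4 with siCtrl (log2 fold change -2.18). The flap endonuclease gene FEN1 fell by 1.37 and the replication clamp gene PCNA by 1.03. A fall of this kind in these libraries was known when the list was drawn up, so it is no independent evidence of direction.

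Genes of complexes that work beside the E2Fs were read against the 24.8% of all features called higher and 23.2% called lower, and the lists were not tested against each other. Of 9 genes of the MuvB core, its B-MYB and FOXM1 partners and the kinase DYRK1A, 3 fell and 1 rose (median -0.16). The MuvB core is a part of the cell cycle repressor DREAM and, with B-MYB or FOXM1, of the mitotic activators. FOXM1 fell by 1.19, LIN9 by 0.92 and MYBL2 by 0.76, while DYRK1A, whose kinase assembles DREAM, rose by 0.55. Of 9 genes of the Polycomb complex PRC1.6, in which E2F6 works, 4 rose and 0 fell by limma, edgeR or DESeq2. At an unadjusted limma p under 0.05, 1 was lower, and the share of all features at that threshold was not taken. YAF2 rose by 0.97, RYBP by 0.80, MAX by 0.63 and MGA, the scaffold, by 0.29, while the median of the list was -0.17, opposite in sign. MAX was not called without the first siCtrl library (0.51, adjusted p = 0.0988), and with that library left out 2 genes of the list were called higher.

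**Figure D5:**
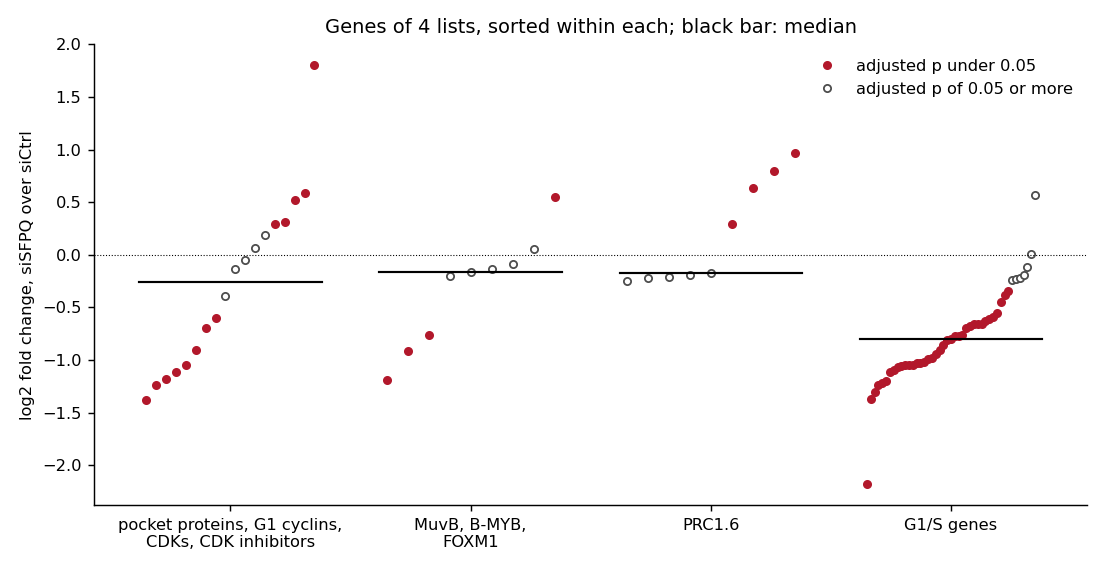
Log2 fold change of siSFPQ over siCtrl (vertical axis) for each tested gene of 4 lists (horizontal axis), sorted within a list; filled points have an adjusted p under 0.05 and black bars are medians. The G1/S list has no filled point above 0, and the PRC1.6 list has none below 0.

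By a rule of least Euclidean distance between centred log2 values over the 6 libraries, the genes most like E2F1 were ESCO2 (distance 0.111), NCAPH (0.158) and ORC6 (0.167). ESCO2 encodes a cohesin acetyltransferase, NCAPH a condensin subunit and ORC6 a subunit of the origin recognition complex. Those most like E2F8 were RFC3 (0.216), a subunit of the clamp loader, RASL10B (0.238) and DRG2 (0.243). Those most like E2F4 were SERPINH1 (0.069), YOD1 (0.074) and DNAJB9 (0.078). The candidates were 9852 features with at least the median level, and the libraries of a group share their treatment.

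SFPQ itself had 1825 and 1972 normalized reads with siSFPQ-2, 1922 and 2466 with siSFPQ-3, and 2294 and 2435 with siCtrl, and its log2 fold change of -0.22 was not called (limma adjusted p = 0.137). An siRNA acts on mature RNA, so this does not check the knockdown. Of 9 neuroendocrine markers of the cell type, 5 had values, and CHGA was nearly absent, at 2.59 ± 2.33 with siSFPQ and 3.81 ± 0.88 with siCtrl. Summed over the 5, the markers came to 691 and 651 with siSFPQ-2, 455 and 495 with siSFPQ-3, and 669 and 608 with siCtrl. Of the 4 tested, 0 were called higher and 1 lower with siSFPQ. The 5 epithelial markers (of 7) with values summed to 3102 to 4156 with siSFPQ and 1117 to 1216 with siCtrl, with 3 of 5 higher and 1 lower, and the 5 fibroblast markers (of 8) to 3929 to 4997 with siSFPQ and 2789 to 2866 with siCtrl, with 3 of 5 higher and 1, SPARC, lower (-0.53). The 3 immune markers (of 6) summed to 504 to 783 with siSFPQ and 752 in both siCtrl libraries. Most of that sum was CD68, which fell (-0.49). ITGAX and CD79A had few reads. ITGAX, at 30.4 ± 7.76 with siSFPQ and 3.50 ± 1.81 with siCtrl, passed the filter only through its siSFPQ libraries. Its call is therefore not read as a result. CD79A had 31.9 ± 7.36 with siSFPQ and 13.2 ± 9.59 with siCtrl (limma adjusted p = 0.0177). TEK, the only endothelial marker of 5 with values, had 88.2 to 145 with siSFPQ and 38.3 to 48.7 with siCtrl. CHGA was at 0 in the first siSFPQ-3 library, and no other marker with values was at 0 in any library. Their part in the changes of the E2F and DP genes was not tested.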

How the data were processed

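The authors deposited a table of normalized reads (unit signal) with 1 value per library, and, for each library, signal in 500 bins per gene. The submitters' processing notes list DESeq2 1.38.1, SAMtools 1.3.1, Bowtie2, cutadapt 1.14 and UMI-tools, and the builds hg38 and dm6. The counted part of a gene, the use of strand and the role of dm6 are not given there. All values were whole multiples of 1 read (100% at a tolerance of 0.1), so reads were recovered, and 1 read was worth 0.797 to 1.11. The authors' deposited log2 fold change and adjusted p-value served only for the values credited to their table.

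After removal of 240 repeated lines, 21773 features had 10 or more in at least 2 libraries and entered 1 limma 3.58.1 fit (trend, R 4.3.3) of the 3 groups on log2(value + 1), with Benjamini-Hochberg adjustment over all features; edgeR 4.0.16 and DESeq2 1.42.0 on recovered reads were alternatives. Profile shares were fitted the same way, with the 10th percentile of signal as pseudocount. Scripts were tested on simulated data.

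Members, gene lists and tests were chosen with earlier results of these data known. Named genes were all members, SFPQ, RB1, RBL1 and RBL2, up to 3 genes per list and direction past the threshold with the smallest p, tested neighbours within 5 kb, and the 3 nearest genes of E2F1, E2F4 and E2F8; CHGA, TEK, SPARC, CD68, ITGAX, CD79A, CDC25A and MGA were named after their values were seen. Spans and promoters came from RefSeq (GRCh38.p14), which matched all 10 members by symbol for spans and 8 for promoters. The file gave E2F3 no Ensembl gene identifier. Replicates differed by more than sampling noise (chi-square per degree of freedom of 11.1 to 24.3 within groups) and each counted as a sample. The labels give no batches. Some genes of the lists are not reported here.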

Additional observations from a re-analysis of the deposited data

How the results depend on the processing

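Scaling to the same total moved the median of all features to -0.06, from -0.02, and changed no call of a member. Over 15 alternatives of each member's fold change for both siRNAs, 149 of 150 values kept their side of the threshold, the exception being E2F6. The fold change of E2F4, called in none of them, changed sign among them and ran from -0.08 to 0.20. Leave-one-out values are ranges: features called higher ran from 3622 to 5502 and lower from 2463 to 5205, with 2463 without the first siCtrl library and 2529 without the second. Members called lower ran from 5 to 6 for both siRNAs, 4 to 6 with siSFPQ-2 and 2 to 6 with siSFPQ-3, members called higher for siSFPQ-3 over siSFPQ-2 from 0 to 2, genes called by the 5′ share from 0 to 1029 (2152 with all libraries) and members from 0 to 2, and genes called by the downstream share were 0, against 70. The replicate numbers only name libraries (correlation of deviations 0.0529 to 0.382 between groups, over 2 numbers). With the replicate block, 4 members (E2F1, E2F2, E2F7 and TFDP2) were higher for siSFPQ-3 over siSFPQ-2, and the 5′ share called 908 genes and 1 member, the downstream share 21 genes, and in the lists 1 G1/S gene was higher and 1 PRC1.6 gene lower. The block changed no other call of a member's fold change. With a pseudocount 5 times smaller the 5′ share called 0 members, their adjusted p between 0.0565 and 0.0612, and the downstream share 1 gene; with one 5 times larger, 0 genes. Over the first 20% of the gene the 5′ share called 2 members. The balance of activators against E2F7 and E2F8 only was -0.11. The same alternatives for list genes were chosen after seeing the data: pocket and G1 genes called higher ran from 2 to 4 without 1 library, and were 3 with the same total and with DESeq2. Causes were not tested. The lowest library of E2F2 held 27 reads, which limits the precision of its fold change.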

Other observations

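Among genes that E2F1 is known to switch on in cell death, those past the threshold with the smallest p in each direction are given here. PMAIP1, which encodes the pro-apoptotic protein NOXA, averaged 520 ± 62.8 normalized reads in siSFPQ libraries and 100.9 ± 1.63 in siCtrl libraries (SD, n = 4 and n = 2), a log2 fold change of 2.35 (SE 0.12, limma adjusted p = 2.81e-07), and the values did not overlap. APAF1, the apoptosome scaffold gene, rose by 0.70 and BBC3, which encodes PUMA, by 0.69. TP73, the p53 relative, fell by 0.63, a call lost without either siCtrl library (adjusted p = 0.144 without the first and 0.0922 without the second).

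Of 4 tested germline genes that E2F6 silences in the mouse, 0 rose by limma, edgeR or DESeq2 or at an unadjusted p under 0.05 and 1 fell, where 24.8% of all features were called higher and 23.2% lower. SMC1B, which encodes a meiotic cohesin subunit, averaged 51.0 ± 18.3 in siSFPQ libraries and 150 ± 17.8 in siCtrl libraries, a log2 fold change of -1.60 (SE 0.31, limma adjusted p = 1.65e-03).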
